A study of Poecilia reticulata with 6 samples.

Results

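The mitochondrial carriers and the genes of the mitochondrial protein import machinery were followed in the intestine of the guppy (Poecilia reticulata) at 3 salinities, 0‰, 18‰ and 35‰. Members were the rows of the deposited table whose gene name begins with slc25a (carriers) or with timm or tomm (import genes), in either case of letters, and whose level was at least 1 TPM (a transcript level scaled for transcript length and library size) in at least 2 libraries. Of the 10389 rows in the table, 52 carry such a name and 45 of these passed, namely 30 of 36 carriers and 15 of 16 import genes. Because of that scaling, levels of different genes can be set side by side. The question was how carriers and import genes compare across the salinities, in a tissue where seawater fish take up salt and water.

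The RNA came from the intestine of adult wild-type guppies and was sequenced in 6 libraries, 2 at each salinity. The salt groups were brought up gradually (3‰ per step, 1 step each 2 days, 24 days in all), so salinity and the length of exposure cannot be told apart. The labels write the salinities as percent salt. How many fish or tanks stand behind a library is not stated, so the spread between the 2 libraries of a salinity may be technical, and p-values measure that spread alone.

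Mitochondrial carriers of the slc25 family sit in the inner membrane and exchange metabolites, nucleotides, phosphate and cofactors between the cytosol and the matrix, and they feed the respiratory chain and ATP synthase. The name rule also takes in slc25a17, a carrier of peroxisomes, and no carrier count, median or sum was taken without it. Nearly all mitochondrial proteins are made in the cytosol and enter through the TOM complex of the outer membrane. The TIM23 complex then passes proteins with a presequence towards the matrix, while small Tim chaperones escort carriers to the TIM22 complex, which inserts them into the inner membrane. The table has no row named for timm9, timm17, timm22, timm50 or tomm22, and timm10b is its only timm10 name. The import genes followed here are therefore part of this machinery, and the levels of the subunits without a row are unknown. In fish that drink seawater, the intestinal epithelium runs ion pumps that consume ATP. No sequence or genome position is given for these genes, since the genome build behind the table is not given in the sources used here.

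The summed TPM of the table lay between 419412 and 481864 per library, so it covers part of each library, and the depth in reads is unknown. Pearson's r between the libraries of a salinity, taken over genes on log2(TPM + 1), was 0.942 to 0.975, though genes do not replicate each other. A search for 8 enterocyte symbols gave 4 rows in the table, anpepb and ANPEP among them. None of these rows was at 0 throughout. Their summed TPM ran from 2796 to 3651 for 0‰, 5224 to 5830 for 18‰ and 2999 to 5020 for 35‰. In 18‰ versus 0‰, 3 rows were higher without overlap between libraries and 0 lower. In 35‰ versus 18‰, 3 rows were lower and 1 higher, so the rows did not move together. The higher row was cdh17, and anpepb was among the lower ones. Markers of other tissues differed between libraries as well. The numbers in brackets below are rows found and symbols listed. Copies of a gene count as separate rows, so fewer symbols may be covered. The exocrine pancreas rows (3 rows for 9 symbols) summed to 1504 to 8065 TPM at 0‰ and 18‰ and to 4.27 and 63.6 at 35‰. The distal enterocyte rows, tcn2 and ctsl.1 (2 of 5), summed to 821 to 1431 TPM at 0‰ and 18‰ and to 23.2 and 33.0 at 35‰. The liver rows (2 of 8) summed to 1364 TPM in 0‰ replicate 2 and to at most 17.5 elsewhere. The leukocyte rows (5 of 8) summed to 592 TPM in 0‰ replicate 1 and to 174 to 231 elsewhere. The skeletal muscle rows (4 rows for 6 symbols, with 1 at 0 in every library) summed to 38.5 TPM in 35‰ replicate 1 and at most 5.22 elsewhere. In 35‰ replicate 1 mylpfa alone held 37.45 TPM, and each other row of that group was under 1 TPM there. The goblet cell rows (2 of 4) summed to 299 to 663 TPM at 0‰ and 18‰ and to 161 and 242 at 35‰. Smooth muscle gave 6 rows for 7 symbols, with smtna, smtnb and smtnl among them. These summed to 135 and 156 TPM at 0‰, 255 and 205 at 18‰, and 193 and 245 at 35‰, so all salt libraries lay above both at 0‰. The erythrocyte rows (2 of 4) summed to 1.11 to 8.73 TPM. The part of all these markers in the results below was not tested. In bulk tissue, fewer cells of a type and less RNA per cell cannot be told apart.

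The level part of the rule left 7 names out. The slc25a29 gene ENSPREG00000013863 reached 1.86 TPM in 35‰ replicate 1, slc25a18 reached 1.34 in 18‰ replicate 2 and slc25a21 reached 1.14 in 35‰ replicate 2, each in 1 library only. The highest values of the others were 0.83 TPM for slc25a15b, 0.52 for TOMM40L, 0.10 for the SLC25A12 gene ENSPREG00000004381 and 0.05 for slc25a1a. Just inside the threshold, 5 carriers reached 1 TPM in 3 libraries. They were slc25a47a, slc25a14, slc25a37, slc25a38b and SLC25A45, with mean levels over all libraries of 0.97 to 1.27 TPM. The remaining members reached it in 5 or 6 libraries.

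No carrier and no import gene was called in any of the 3 comparisons. A gene counted as called when its Benjamini-Hochberg adjusted p over all 7897 genes tested was under 0.05 and its fold change above 1.5, in limma's moderated test on log2(TPM + 1). By this rule 0.0127% of all genes tested were called between 18‰ and 0‰, 0.190% between 35‰ and 0‰ and 0.317% between 35‰ and 18‰, and a count of 0 among 45 members is no result about them beside these shares. Fold changes below are given as log2 values ± standard error (SE) from that fit. The smallest adjusted p of a member in limma was 0.750, 0.153 and 0.234 in the 3 comparisons. At an unadjusted p under 0.05, 0 carriers and 1 import gene stood in 18‰ versus 0‰, against 5.93% of all genes tested. In 35‰ versus 0‰ the counts were 9 of 30 carriers and 1 of 15 import genes, against 11.3%, and in 35‰ versus 18‰ again 9 carriers and 1 import gene, against 12.5%. For a single gene, permuting 2 libraries against 2 in an exact two-sided test gives no p below 0.333. The 95% interval of a log2 fold change had a median width of 1.44 for carriers and 1.20 for import genes, so a p above the threshold does not show equal levels.

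At 35‰ the carriers lay on both sides of the other salinities. In 7 of 30 carriers both libraries at 35‰ lay above all 4 others, and in 5 both lay below. Over all genes tested the shares were 10.6% above and 14.2% below. Among the 15 import genes the counts were 2 above, timm8b and timmdc1, and 0 below. These counts moved with single libraries. Without 35‰ replicate 1, 12 carriers and 6 import genes lay above (29.1% of all genes tested), and 2 import genes lay below (22.2%). Without 0‰ replicate 2, 12 carriers lay above (13.9%), without 0‰ replicate 1, 8 carriers lay below (20.0%), and without 35‰ replicate 2, 9 carriers and 1 import gene lay below (36.4%).

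**Figure D1:**
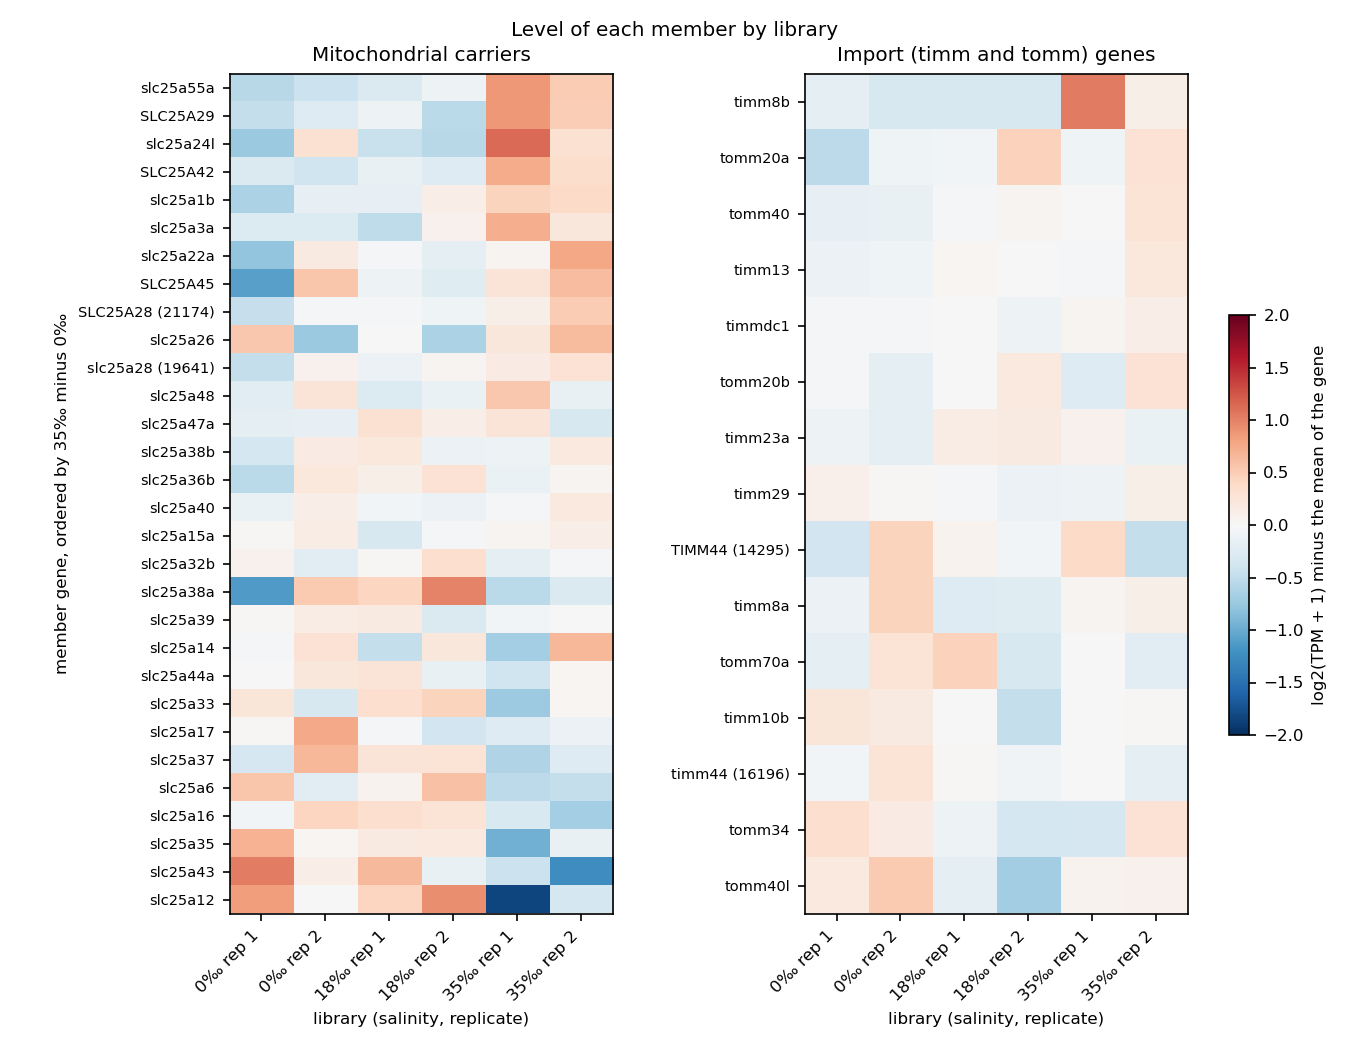
Each row is a member and each column a library, and the colour gives log2(TPM + 1) minus the mean of that gene over the 6 libraries, from blue (below its mean) to red (above). Carriers are on the left and import genes on the right, both ordered by the difference between 35‰ and 0‰, and digits after a name are the end of its Ensembl identifier. Because of this order, the carrier panel runs mostly from red to blue in the 2 columns at 35‰, from slc25a55a at the top to slc25a12 at the bottom. In the import panel, ordered in the same way, timm8b in 35‰ replicate 1 is the deepest colour.

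Carriers of phosphate and nucleotides were on both sides at 35‰. The phosphate carrier slc25a3a, which brings in the phosphate that ATP synthase joins to ADP, had the highest mean level of all members (255 TPM). It stood at 202 and 203 TPM at 0‰, 172 and 260 at 18‰, and 405 and 286 at 35‰. Both 35‰ libraries were the highest of the 6, and the 18‰ libraries lay on either side of those at 0‰. The mean at 35‰ was 1.70 times that at 0‰, with a log2 fold change of 0.74 ± 0.29 (SE, 95% interval 0.07 to 1.42, limma adjusted p = 0.397), and 0.49 without 35‰ replicate 1.

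The other 5 genes of that group were far lower. The ADP/ATP translocase slc25a6, which exchanges matrix ATP for cytosolic ADP, had 6.50 and 3.34 TPM at 0‰, 4.34 and 6.68 at 18‰, and 2.56 and 2.67 at 35‰. Both 35‰ values were below all others, with a log2 fold change of −0.66 ± 0.34 against 0‰ (SE, limma adjusted p = 0.497) and −0.82 against 18‰ (limma adjusted p = 0.392). Against 0‰ it was −0.26 without 0‰ replicate 1 and −1.05 without 0‰ replicate 2. It is the one ADP/ATP translocase among all rows with a slc25a name, those below the level rule included. The levels of translocase genes that the table does not name are unknown. The ATP-Mg/phosphate carrier relative slc25a24l had 0.76 and 2.65 TPM at 0‰, 1.16 and 1.0 at 18‰, and 5.42 and 2.65 at 35‰. Its 35‰ libraries lay above those at 18‰, with a log2 fold change of 1.22 ± 0.43 (SE, limma adjusted p = 0.330), and overlapped with 0‰.

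The pyrimidine nucleotide carrier slc25a33 was highest at 18‰. Its TPM was 47.0 and 31.6 at 0‰, 50.3 and 54.3 at 18‰, and 23.7 and 40.7 at 35‰. Both 18‰ values were the highest, with log2 fold changes of 0.43 ± 0.32 in 18‰ versus 0‰ (SE, limma adjusted p = 0.968) and −0.73 in 35‰ versus 18‰ (limma adjusted p = 0.408). Its relative slc25a36b kept between 4.0 and 7.84 TPM, with both 18‰ libraries above both at 35‰ and overlap with 0‰. The peroxisomal carrier slc25a17, which moves cofactors into peroxisomes, had 6.06 and 10.7 TPM at 0‰, 5.76 and 4.31 at 18‰, and 4.78 and 5.38 at 35‰. All 4 libraries in salt were below both at 0‰, with log2 fold changes of −0.60 ± 0.31 at 18‰ (SE, limma adjusted p = 0.928) and −0.58 at 35‰ (limma adjusted p = 0.509). The value of 10.7 is from 0‰ replicate 2, and without that library the log2 fold changes were −0.24 and −0.22. That library also had the highest sum of the liver markers, whose part in this value was not tested.

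Amino acid carriers held both the gene with the largest positive and the gene with the largest negative log2 fold change against 0‰. The slc25a55a gene, listed with this group though its substrate is not described here, had 19.6 and 21.6 TPM at 0‰, 24.0 and 27.4 at 18‰, and 54.7 and 42.1 at 35‰. The 3 salinities did not overlap and the means stood in the order of salinity. The mean at 35‰ was 2.35 times that at 0‰, with a log2 fold change of 1.18 ± 0.23 (SE, 95% interval 0.63 to 1.73, limma adjusted p = 0.153), against 0.30 at 18‰ (limma adjusted p = 0.971) and 0.88 between 35‰ and 18‰ (limma adjusted p = 0.234). The slc25a12 gene encodes an aspartate/glutamate carrier of the malate-aspartate shuttle, which brings reducing power from cytosolic NADH into mitochondria. Its TPM was 28.0 and 15.2 at 0‰, 21.0 and 30.2 at 18‰, and 3.57 and 11.7 at 35‰. At 35‰ the pair was the lowest, replicate 1 by far. The log2 fold change was −1.51 ± 0.52 against 0‰ (SE, 95% interval −2.73 to −0.29, limma adjusted p = 0.352) and −1.78 against 18‰ (limma adjusted p = 0.259). Without 35‰ replicate 1 these were −0.77 and −1.04. Both genes, and slc25a38a below, stand in a K-means table that the study drew from these libraries. That table clusters genes the study called differentially expressed in any pair of salinities. Its test used read counts, with the same cutoffs as here, so the lack of a call here differs from the study's result for these genes. Their size here is not independent of that choice. The slc25a10 gene, also in that K-means table, has no row of that name in the TPM values used here, so it was not analysed.

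The carrier for basic amino acids, SLC25A29 (ENSPREG00000019899), had 3.99 and 4.84 TPM at 0‰, 5.49 and 3.80 at 18‰, and 11.7 and 8.82 at 35‰. The pair at 35‰ was clear of the others, while 0‰ and 18‰ overlapped. The log2 fold change was 1.05 ± 0.27 against 0‰ (SE, 95% interval 0.41 to 1.69, limma adjusted p = 0.252) and 1.0 against 18‰ (limma adjusted p = 0.238). The glutamate carrier slc25a22a had the highest mean of the amino acid group (56.3 TPM), at 30.7 and 61.0 at 0‰, 52.4 and 46.6 at 18‰, and 55.5 and 91.7 at 35‰. Libraries at 0‰ and 35‰ overlapped, and the log2 fold change between them was 0.71 ± 0.38 (SE, limma adjusted p = 0.519), from 0.22 without 0‰ replicate 1 to 1.19 without 0‰ replicate 2.

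The glycine carrier slc25a38a, which supplies glycine for haem synthesis, and its relative slc25a38b differed in level and pattern. For slc25a38a the TPM was 10.8 and 35.9 at 0‰, 33.8 and 50.5 at 18‰, and 16.8 and 20.1 at 35‰. Its 0‰ libraries lay far apart and overlapped with both other salinities (log2 fold changes 1.02 at 18‰, limma adjusted p = 0.920, and −0.11 at 35‰, limma adjusted p = 0.954), while 35‰ lay below 18‰ with a log2 fold change of −1.13 ± 0.51 (SE, limma adjusted p = 0.415). The slc25a38b gene stayed between 0.69 and 1.49 TPM. The remaining 4 genes of the group had narrow ranges. The glutathione carrier slc25a39 had 15.8 to 22.4 TPM and its relative slc25a40 17.1 to 21.8, the branched-chain amino acid carrier slc25a44a 7.0 to 11.7 and the ornithine carrier slc25a15a 3.12 to 4.74. The last had 4.26 and 4.74 TPM at 0‰ against 3.12 and 4.02 at 18‰, lower without overlap (−0.27 ± 0.24, SE, limma adjusted p = 0.980). Their log2 fold changes in 35‰ versus 0‰ lay between −0.30 and 0.08.

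The citrate carrier slc25a1b, which exports citrate from which the cytosol makes acetyl-CoA for lipids, stood in the order of salinity without overlap. It had 120 and 166 TPM at 0‰, 167 and 204 at 18‰, and 255 and 245 at 35‰. The mean at 35‰ was 1.75 times that at 0‰, with a log2 fold change of 0.82 ± 0.25 (SE, 95% interval 0.24 to 1.40, limma adjusted p = 0.300), and the mean at 18‰ was 1.30 times that at 0‰ (log2 fold change 0.39, limma adjusted p = 0.953, and 0.16 without 0‰ replicate 1). The gap between the nearest libraries of 0‰ and 18‰ was small, 166 against 167 TPM. The second gene of the carboxylate group, slc25a35, had 5.60 and 3.19 TPM at 0‰, 3.60 and 3.64 at 18‰, and 1.09 and 2.68 at 35‰. It was lowest in both 35‰ libraries, with a log2 fold change of −0.92 ± 0.36 against 0‰ (SE, limma adjusted p = 0.403) and −0.74 against 18‰ (limma adjusted p = 0.452). Against 0‰ it was −0.52 without 35‰ replicate 1 and −0.60 without 0‰ replicate 1, and against 18‰ −0.33 without 35‰ replicate 1.

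Cofactor carriers were likewise found on both sides at 35‰. The coenzyme A carrier SLC25A42 had 4.43 and 4.01 TPM at 0‰, 4.97 and 4.50 at 18‰, and 10.1 and 7.42 at 35‰. At 35‰ both values were above the rest, with a log2 fold change of 0.89 ± 0.25 against 0‰ (SE, 95% interval 0.31 to 1.47, limma adjusted p = 0.282) and 0.75 against 18‰ (limma adjusted p = 0.301). The slc25a16 gene, whose yeast counterpart serves coenzyme A supply, was lower instead, at 6.52 and 9.62 TPM at 0‰, 8.86 and 8.53 at 18‰, and 5.33 and 3.90 at 35‰. Both 35‰ libraries were the lowest of the 6, with a log2 fold change of −0.68 ± 0.27 against 0‰ (SE, limma adjusted p = 0.408) and −0.80 against 18‰ (limma adjusted p = 0.315). Against 0‰ it was −0.43 without 0‰ replicate 2. The most abundant of the group, the folate and FAD carrier slc25a32b, had 11.2 and 8.85 TPM at 0‰, 10.8 and 13.6 at 18‰, and 9.26 and 10.3 at 35‰, with overlap between 0‰ and 35‰ (−0.03 ± 0.24, SE, limma adjusted p = 0.975). The S-adenosylmethionine carrier slc25a26 ranged from 0.87 to 3.85 TPM, with both values at 35‰ (2.66 and 3.85) above those at 18‰ (2.14 and 1.02) and overlapping with 0‰ (3.56 and 0.87). Its log2 fold change in 35‰ versus 18‰ was 0.74 ± 0.46 (SE, limma adjusted p = 0.541).

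Both genes named for mitoferrin-2, the carrier that brings iron into mitochondria in most tissues, were highest at 35‰. ENSPREG00000021174, written SLC25A28, had 54.3 and 73.4 TPM at 0‰, 74.4 and 70.7 at 18‰, and 81.6 and 107 at 35‰. ENSPREG00000019641, written slc25a28, had 21.2 and 31.7 TPM at 0‰, 27.7 and 31.3 at 18‰, and 33.8 and 36.7 at 35‰. In both, the 35‰ libraries lay above the other 4 and 0‰ replicate 1 was the lowest. The log2 fold changes in 35‰ versus 0‰ were 0.56 ± 0.25 (SE, limma adjusted p = 0.468) and 0.43 ± 0.26 (SE, limma adjusted p = 0.565), the first being 0.34 without 0‰ replicate 1 and 0.36 without 35‰ replicate 2. How reads shared by the copies were assigned is not stated, so their levels may not be independent. The mitoferrin-1 gene slc25a37, known for iron supply to developing red cells, was near the detection rule with 0.33 to 2.19 TPM and was highest in 0‰ replicate 2, where the erythrocyte markers also had their highest sum, 8.73 TPM. The match did not hold throughout. In 35‰ replicate 2 the erythrocyte sum was 6.45 TPM and slc25a37 was at 0.68. At 18‰ the sums were lower, 3.82 and 3.18, and slc25a37 was higher, 1.41 and 1.44. The part of red cells in its level was not tested.

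Among the other carriers, slc25a43, a family member without an assigned substrate, had 10.4 and 5.18 TPM at 0‰, 7.82 and 4.07 at 18‰, and 3.18 and 1.36 at 35‰. Both 35‰ libraries were the lowest, with a log2 fold change of −1.42 ± 0.45 against 0‰ (SE, 95% interval −2.47 to −0.37, limma adjusted p = 0.317) and −1.09 against 18‰ (limma adjusted p = 0.392), the latter −0.69 without 18‰ replicate 1 and −0.68 without 35‰ replicate 2. The choline carrier slc25a48 had 39.2 and 55.2 TPM at 0‰, 38.1 and 42.0 at 18‰, and 67.3 and 41.5 at 35‰, and all 3 salinities overlapped (0.18 ± 0.30 in 35‰ versus 0‰, SE, limma adjusted p = 0.852). The slc25a47a gene had 0.69 and 0.73 TPM at 0‰, 1.40 and 1.12 at 18‰, and 1.33 and 0.55 at 35‰. Only 18‰ lay apart from 0‰, by 0.40 ± 0.30 (SE, limma adjusted p = 0.971). The SLC25A45 gene was listed at 0 in 0‰ replicate 1 and had 0.78 to 2.25 TPM elsewhere. The uncoupling protein relative slc25a14 had 0.88 and 1.36 TPM at 0‰, 0.38 and 1.24 at 18‰, and 0.20 and 2.06 at 35‰. Its lowest and highest values were both at 35‰, and the log2 fold change against 0‰ was −0.14 ± 0.49 (SE, limma adjusted p = 0.933).

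**Figure D2:**
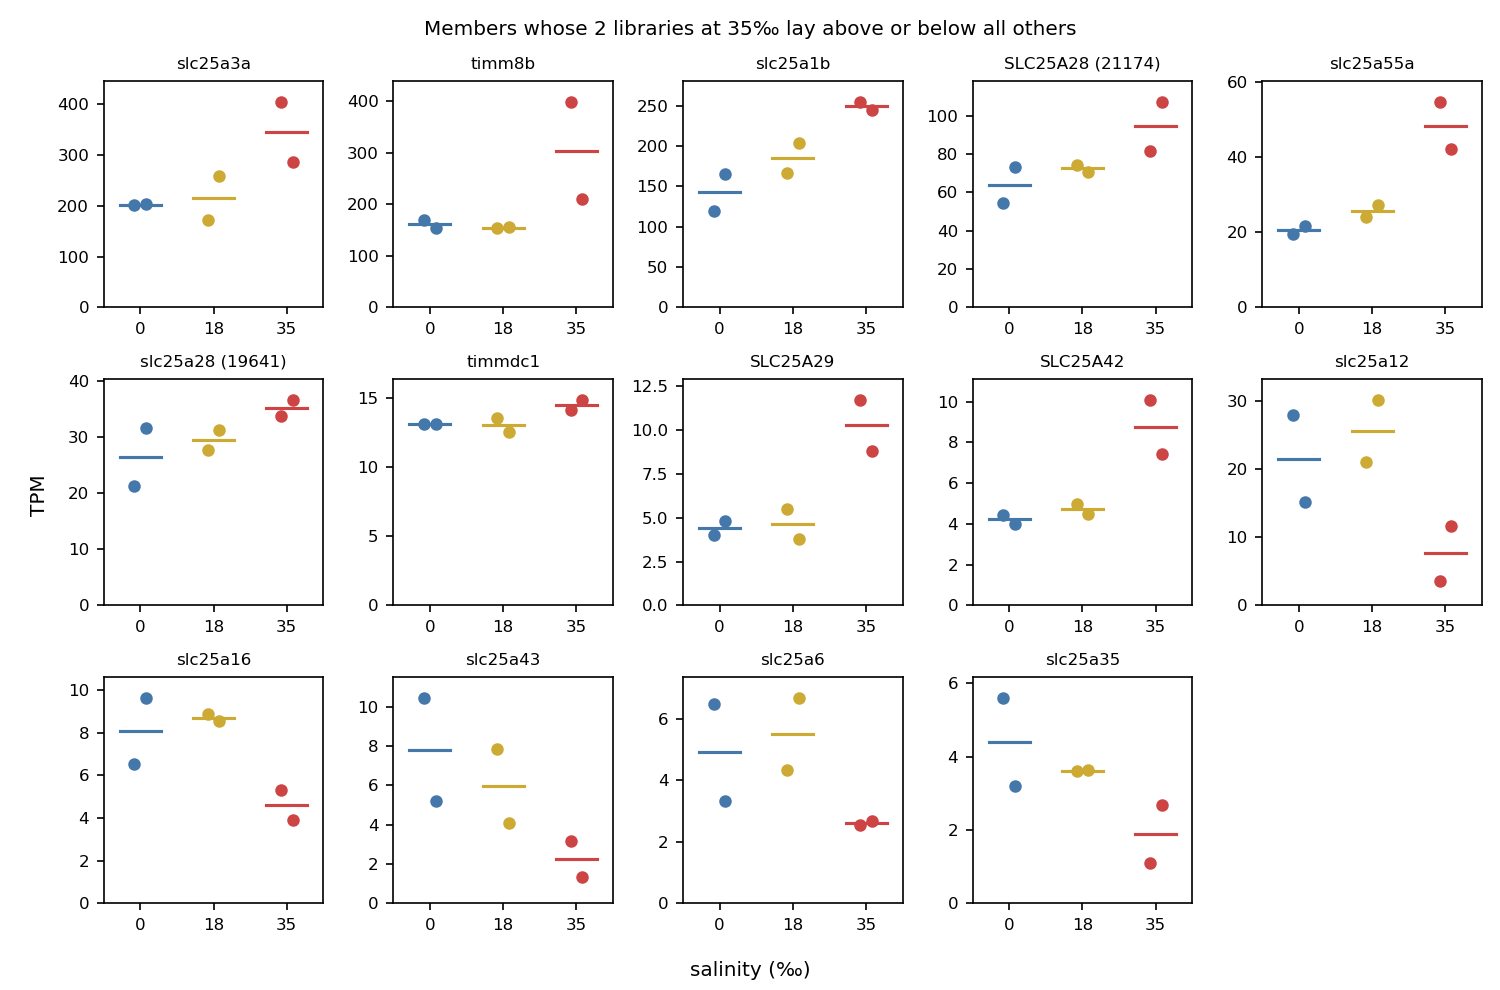
Each panel plots the TPM of 1 member (vertical axis, from 0) against salinity in ‰, with a point for each library and a bar at the mean of the 2 libraries. Shown are the 9 members whose 2 libraries at 35‰ lay above all others, followed by the 5 whose libraries lay below, a choice made on these values. At 35‰ the 2 points are far apart for timm8b (398 and 210 TPM) and close for slc25a1b (255 and 245 TPM).

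Import genes were led by the small Tim chaperone timm8b, which carries hydrophobic proteins across the space between the membranes. It had 168 and 154 TPM at 0‰, 154 and 155 at 18‰, and 398 and 210 at 35‰. Libraries at 0‰ and 18‰ were close together, and both at 35‰ lay above them, replicate 1 by far the most. That replicate also had the highest skeletal muscle sum (38.5 TPM, of which mylpfa alone held 37.45), whose part in this value was not tested. The log2 fold change was 0.84 ± 0.32 against 0‰ (SE, 95% interval 0.09 to 1.59, limma adjusted p = 0.389) and 0.90 against 18‰ (limma adjusted p = 0.330). Without 35‰ replicate 1 these were 0.38 and 0.44, and without 35‰ replicate 2 they were 1.30 and 1.36. The paralog timm8a had 27.5 and 41.2 TPM at 0‰, 24.9 and 25.3 at 18‰, and 31.1 and 32.5 at 35‰, lowest at 18‰ (−0.41 ± 0.25 against 0‰, SE, limma adjusted p = 0.950) and overlapping between 0‰ and 35‰. The highest value was in 0‰ replicate 2, without which the difference at 18‰ was −0.13. Another member of the family, timm13, which partners Tim8 in the same chaperone, had 44.3 and 45.3 TPM at 0‰, 49.6 and 48.3 at 18‰, and 47.8 and 55.9 at 35‰. All 4 salt libraries were above both at 0‰ by a small margin, with log2 fold changes of 0.12 at 18‰ (limma adjusted p = 0.995) and 0.20 ± 0.21 at 35‰ (SE, limma adjusted p = 0.747).

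In the TOM complex, the receptor tomm20b, which recognises presequences at the outer membrane, was the most abundant at a mean of 157 TPM. It had 151 and 136 TPM at 0‰, 156 and 178 at 18‰, and 130 and 191 at 35‰, with 35‰ enclosing all others (0.13 ± 0.26 against 0‰, SE, limma adjusted p = 0.873). The lower copy tomm20a had 2.54 and 3.80 TPM at 0‰, 3.94 and 6.04 at 18‰, and 3.80 and 5.24 at 35‰, with a log2 fold change of 0.52 ± 0.30 in 18‰ versus 0‰ (SE, limma adjusted p = 0.950). The channel gene tomm40 had 6.66 and 6.73 TPM at 0‰, 7.44 and 7.93 at 18‰, and 7.61 and 9.32 at 35‰. All salt libraries lay above those at 0‰, with a log2 fold change at 35‰ of 0.29 and a 95% interval of −0.24 to 0.82 (limma adjusted p = 0.662). The tomm40l copy had 2.14 and 2.95 TPM at 0‰, 1.41 and 0.70 at 18‰, and 1.87 and 1.90 at 35‰. It was lower in all salt libraries, with a log2 fold change of −0.80 ± 0.29 at 18‰ (SE, unadjusted p = 0.0286, limma adjusted p = 0.750), the one member under 0.05 in that comparison. The receptor for carriers, tomm70a, kept between 29.4 and 50.7 TPM with both extremes at 18‰.

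The inner membrane translocases were covered by 3 genes of the TIM23 complex and its motor anchor and 2 of the TIM22 complex, with no row for timm22 itself. Their log2 fold changes in 35‰ versus 0‰ were −0.20 to 0.12. The TIM23 channel gene timm23a had 9.29 and 8.64 TPM at 0‰, 11.2 and 11.5 at 18‰, and 10.7 and 9.0 at 35‰, with the 18‰ libraries on top (0.31 ± 0.22 against 0‰, SE, limma adjusted p = 0.961) and overlap between 0‰ and 35‰ (0.12 ± 0.22, limma adjusted p = 0.871). The 2 genes named for Tim44, which anchors the import motor, had 5.63 to 8.11 TPM (timm44, ENSPREG00000016196) and 2.41 to 5.45 TPM (TIMM44, ENSPREG00000014295), and overlapped in every comparison. In the TIM22 complex, timm10b had 6.84 and 6.51 TPM at 0‰, 5.67 and 3.73 at 18‰, and 5.66 and 5.71 at 35‰. All its salt libraries lay below 0‰, with log2 fold changes of −0.45 ± 0.25 at 18‰ (SE, limma adjusted p = 0.947) and −0.20 at 35‰ (limma adjusted p = 0.802). The timm29 gene kept between 3.30 and 4.07 TPM.

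A pair of genes carry an import name without being translocase subunits. The timmdc1 gene encodes an assembly factor of respiratory complex I, and had 13.1 and 13.1 TPM at 0‰, 13.6 and 12.5 at 18‰, and 14.1 and 14.9 at 35‰. Both 35‰ libraries were the highest, by a log2 fold change of 0.14 ± 0.21 against 0‰ (SE, limma adjusted p = 0.843). The cytosolic co-chaperone tomm34 had 84.0 and 74.0 TPM at 0‰, 61.4 and 51.7 at 18‰, and 51.8 and 80.5 at 35‰, below 0‰ in both 18‰ libraries (−0.48 ± 0.27, SE, limma adjusted p = 0.950) and overlapping at 35‰ (−0.28 ± 0.27, limma adjusted p = 0.730). Without this pair the median log2 fold change of the import genes in 35‰ versus 0‰ was −0.06, as with them.

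Set side by side, the classes had similar medians and unlike spreads. For 35‰ against 0‰, the median was 0.11 (log2) over the 30 carriers, −0.06 over the 15 import genes and −0.01 over all genes tested. The carriers ran from −1.51 to 1.18 and the import genes from −0.29 to 0.84, or to 0.41 without timm8b. The median size of the change, sign aside, was 0.57 for carriers, 0.20 for import genes and 0.28 for all genes tested. In 35‰ versus 18‰ these sizes were 0.57, 0.14 and 0.29, and in 18‰ versus 0‰ they were 0.20, 0.17 and 0.21. A change of more than 0.5 in size was seen at 35‰ against 0‰ in 17 carriers, 10 higher and 7 lower, and in 1 import gene, beside 2020 of 7897 genes tested, 883 higher and 1137 lower. Carriers also differed more between the libraries of a salinity than import genes did. The median difference between replicates was 0.50 at 0‰, 0.23 at 18‰ and 0.37 at 35‰ for carriers, and 0.15, 0.11 and 0.22 for import genes, on the same log2 scale. Over all genes tested it was 0.32, 0.21 and 0.35, near the carriers at 18‰ and 35‰ and above the import genes at each salinity. Among members with a mean of at least 10 TPM, a level chosen after the values were seen, the median standard errors were 0.26 and 0.25, and the median sizes in 35‰ versus 0‰ were 0.42 for 13 carriers and 0.14 for 8 import genes. Over all genes tested with such a mean the median size was 0.28. Leaving out 0‰ replicate 1 brought the carriers' median size in 35‰ versus 0‰ to 0.38, against 0.21 for import genes, and the carriers' median to −0.06. The import median was 0.09 without 0‰ replicate 2 and 0.03 without 35‰ replicate 1, where the median over all genes tested was 0.01 and 0.08. The import size was 0.29 without 0‰ replicate 1 and 0.31 without 18‰ replicate 1 in 18‰ versus 0‰, and 0.26 without 35‰ replicate 1 in 35‰ versus 18‰.

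Members whose libraries did not overlap were counted in each comparison. In 18‰ versus 0‰, 5 carriers were higher and 2 lower, and 5 import genes were higher and 5 lower, where 24.7% of all genes tested were higher and 12.8% lower. In 35‰ versus 0‰, 7 carriers were higher and 7 lower, and 4 import genes were higher and 2 lower, against 18.9% and 20.0%. In 35‰ versus 18‰, 13 carriers were higher and 10 lower, which left 7 that overlapped, and 4 import genes were higher and 1 lower, against 18.7% and 29.0%. Of the carriers counted, slc25a47a in 18‰ versus 0‰ and SLC25A45 and slc25a37 in 35‰ versus 18‰ lay near the level rule. Each met it in both libraries of the salinity where it was higher and in neither of the other. Among 13 carriers with a mean of at least 10 TPM, 3 were higher and 0 lower in 18‰ versus 0‰. In 35‰ versus 18‰, 7 were higher and 4 lower. Over all 3527 genes tested with such a mean, these counts were 874 and 433, then 797 and 1025. The comparisons share libraries and are not independent of each other.

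**Figure D3:**
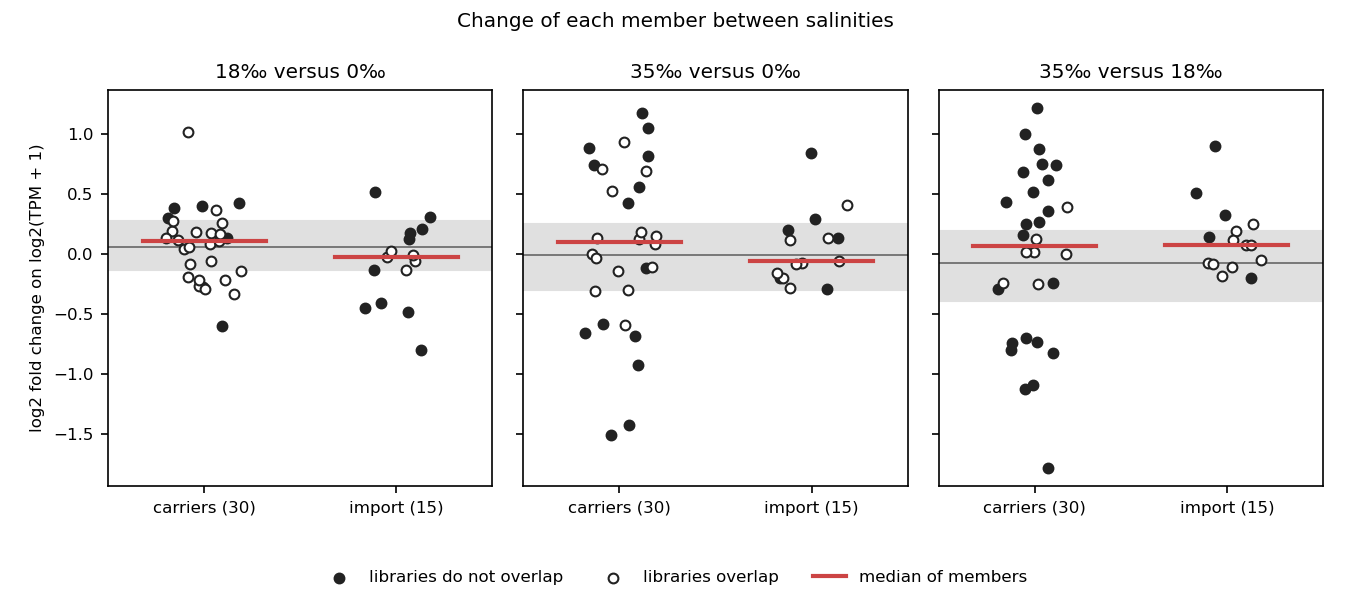
Each point is the log2 fold change of 1 member on the log2(TPM + 1) scale (vertical axis) for 30 carriers and 15 import genes, in the 3 comparisons of salinities. Filled points are members whose libraries do not overlap in TPM, red bars mark the median of the members, and the grey band and line give the middle 50% and the median of all 7897 genes tested. The carrier points in 35‰ versus 0‰ run from −1.51 to 1.18, while all import points but timm8b lie between −0.29 and 0.41.

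Summed over the members, carrier transcripts were 756 ± 92.9 TPM (SD, n = 2) at 0‰, 856 ± 101 at 18‰ and 1076 ± 50.0 at 35‰. Import transcripts were 558 ± 4.41 TPM at 0‰, 549 ± 7.23 at 18‰ and 707 ± 67.3 at 35‰. In both classes each library at 35‰ was above all others, and a few abundant genes held much of the difference. These genes were picked on these values, so a smaller difference without them follows from the choice. The slc25a3a and slc25a1b genes made up 43.3% to 50.0% of carrier TPM at 0‰ and 18‰ and 59.4% and 51.0% at 35‰. Without them the carriers summed to 410 ± 60.1 TPM at 0‰, 454 ± 13.3 at 18‰ and 481 ± 41.1 at 35‰. The libraries of 0‰ and 35‰ then overlapped by a small margin, 453 TPM in 0‰ replicate 2 against 452 in 35‰ replicate 1. The timm8b gene made up 27.7% to 30.1% of import TPM at 0‰ and 18‰ and 52.8% and 31.9% at 35‰. Without it the import genes summed to 397 ± 6.10 TPM at 0‰, 394 ± 7.96 at 18‰ and 403 ± 65.6 at 35‰. The ratio of carrier to import TPM was 1.23 and 1.48 at 0‰, 1.42 and 1.71 at 18‰ and 1.47 and 1.58 at 35‰, and all salinities overlapped. With timm8b left out of the import sum it was 1.76 and 2.05 at 0‰, 1.96 and 2.39 at 18‰ and 3.12 and 2.32 at 35‰, higher at 35‰ than at 0‰ without overlap and overlapping between 18‰ and 35‰. That removal was chosen on these values and is one-sided, since slc25a3a and slc25a1b stayed in the carrier sum. A ratio with these left out as well was not taken, so the gap does not show a difference between the classes. As the summed TPM of the table was higher at 35‰, shares of it were also taken. Carriers were 0.164% and 0.192% of the table at 0‰, 0.176% and 0.202% at 18‰, and 0.231% and 0.216% at 35‰, again highest in both 35‰ libraries. Import genes were 0.134% and 0.130% at 0‰, 0.124% and 0.118% at 18‰, and 0.157% and 0.137% at 35‰.

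**Figure D4:**
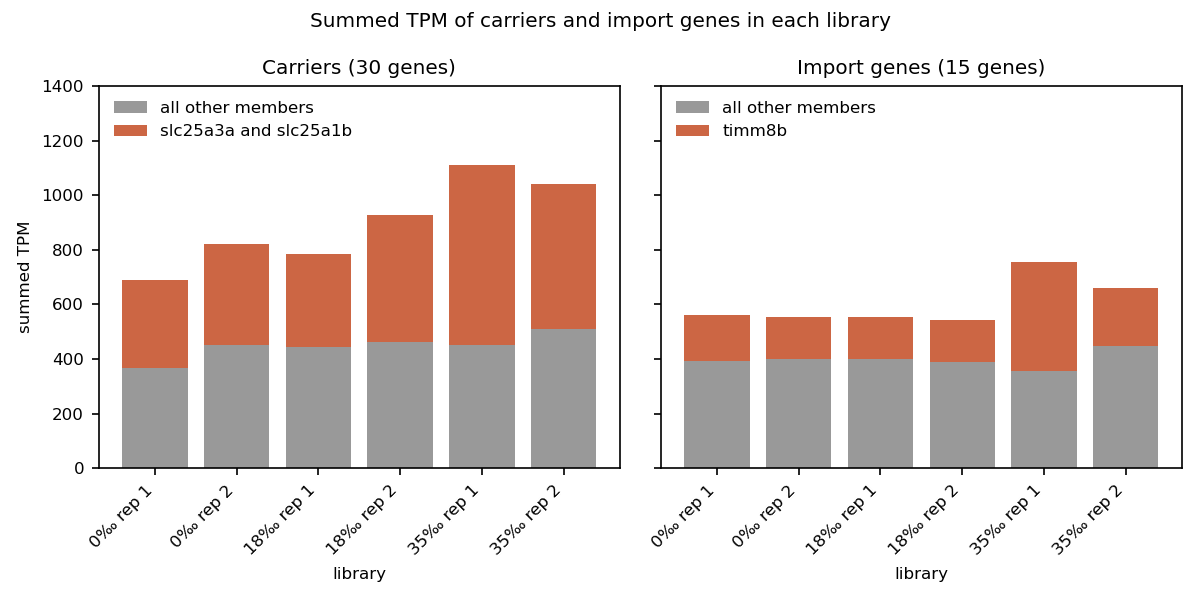
Bars give the summed TPM of the carriers (left) and the import genes (right) in each of the 6 libraries, starting at 0. The coloured part is slc25a3a with slc25a1b on the left and timm8b on the right, and grey is all other members. The grey part of the import bars stands between 356 and 449 TPM in all libraries, while the timm8b part reaches 398 TPM in 35‰ replicate 1.

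The import machinery and the membrane transport of mitochondria also use genes with other names, taken from 2 lists of 22 symbols each. Of the import list (motor, processing peptidases, disulfide relay, outer membrane assembly and matrix chaperonins) 15 genes were tested and none was called. Over all genes tested at most 0.317% were called in a comparison, so this is no result about the list. In 35‰ versus 0‰, 7 of them were higher and 1 lower without overlap (18.9% and 20.0% of all genes tested), with a median log2 fold change of 0.32. The matrix chaperonin hspd1 had 240 and 241 TPM at 0‰, 271 and 294 at 18‰, and 315 and 320 at 35‰ (log2 fold change 0.40, limma adjusted p = 0.495). The outer membrane assembly gene samm50l had 15.02 and 16.1 TPM at 0‰, 15.4 and 16.7 at 18‰, and 25.6 and 29.0 at 35‰ (log2 fold change 0.77, limma adjusted p = 0.282). The gene lower without overlap was pmpca, with 13.4 and 14.6 TPM at 0‰ and 10.3 and 12.3 at 35‰ (log2 fold change −0.29, limma adjusted p = 0.706). The import motor gene pam16 had 3.40 and 8.44 TPM at 0‰, 1.24 at 18‰ replicate 1, a listed 0 at 18‰ replicate 2, and 9.85 and 8.21 at 35‰. It had the largest log2 differences of that list, lower at 18‰ than at 0‰ without overlap (−2.11 ± 0.49, SE, limma adjusted p = 0.520) and higher at 35‰ than at 18‰ (2.74 ± 0.49, SE, limma adjusted p = 0.108), values that depend on the pseudocount because of the listed 0.

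Of the transport list 16 genes were tested and none was called, beside at most 0.317% of all genes tested in a comparison. Without overlap, 5 were higher and 1 lower at 35‰ than at 0‰ (18.9% and 20.0% of all genes tested), with a median log2 fold change of 0.25. The pyruvate carrier subunit mpc2 had 120 and 143 TPM at 0‰, 135 and 142 at 18‰, and 209 and 176 at 35‰ (log2 fold change 0.54, limma adjusted p = 0.416), while its partner mpc1 overlapped, with 62.6 to 94.6 TPM over all libraries. The outer membrane insertase mtch2, a distant relative of the carriers, had 159 and 172 TPM at 0‰, 175 and 169 at 18‰, and 207 and 228 at 35‰ (log2 fold change 0.39, limma adjusted p = 0.507). The gene lower without overlap was MTCH1, with 3.49 and 4.18 TPM at 0‰ and 2.73 and 1.78 at 35‰ (log2 fold change −0.58, limma adjusted p = 0.468). The uncoupling protein gene ucp2 had 0.45 to 1.79 TPM, and ucp3 did not pass the level rule.

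Respiratory chain and ATP synthase genes, whose products the carriers serve, were mostly highest at 35‰. Of 54 such genes tested, 42 had both 35‰ libraries above all others and 3 below (10.6% and 14.2% of all genes tested). The median for 35‰ against 0‰ was 0.48 (log2), with 50 genes above 0, beside 3869 of 7897 genes tested. The median for 18‰ against 0‰ was −0.02. For 54 mitochondrial ribosomal protein genes, whose products are imported as well, 12 lay above and 0 below, beside the same shares, with a median of 0.13. None of either group was called, where at most 0.317% of all genes tested were in a comparison, so this is no result about them. The difference between these groups and the carriers or import genes was not tested.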

How the data were processed

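RNA-seq of guppy intestine gave 6 libraries, 2 per salinity, grouped by sample label. Per the study's methods, the authors ran STAR for alignment and StringTie for quantification, and the deposited values are TPM, normalized for transcript length and library size. Versions and genome build are not given in the sources used here. The table holds no read counts, so the study's count-based test was replaced by limma 3.58.1 (R 4.3.3) with its cutoffs, a fold change above 1.5 and an adjusted p under 0.05. Genes with at least 1 TPM in at least 2 libraries were tested on log2(TPM + 1) in 1 fit of all 6 libraries with a mean-variance trend and without a replicate block. Benjamini-Hochberg adjustment ran over all 7897 genes. This scale understates the change of low genes. Summaries and plots used Python 3.11.15, pandas 2.3.3, numpy 2.4.6 and matplotlib 3.10.9. The fit was also run on simulated data with normal noise and known changes, a check of the code that does not bear on the lack of calls.

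Full values were given for the 6 largest log2 fold changes per direction and comparison among members without overlap, for members in the study's K-means table, and for the most abundant of each role. Other members were named by role after their values were seen. The members, lists and marker genes were chosen with earlier results of these data known. Alternatives covered the pseudocount, the filter, the scaling, the trend, the block, the libraries in the fit and the omission of each library.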

Additional observations from a re-analysis of the deposited data

How the results depend on the processing

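No member was called under any alternative, and the smallest adjusted p of the 46 tests of named members was 0.116 in limma over 633 recomputed values, of which 623 kept the direction. The other 10 left out a library and concerned 35‰ versus 0‰, where the log2 fold change ran from −0.93 to 0.72 for slc25a38a, −0.18 to 0.13 for slc25a32b, −0.81 to 0.54 for slc25a14, −0.16 to 0.52 for slc25a48, −0.14 to 0.41 for tomm20b and −0.60 to 0.029 for tomm34. The cause was not tested.

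With a library left out, the median log2 fold change in 35‰ versus 0‰ ran from −0.062 (without 0‰ replicate 1) to 0.195 for carriers and from −0.056 to 0.087 for import genes, and in 35‰ versus 18‰ from −0.012 to 0.187 for import genes. The median over all genes tested moved as well, from −0.104 to 0.081 in 35‰ versus 0‰ and from −0.155 to 0.007 in 35‰ versus 18‰. The import median was 0.12 at 35‰ versus 0‰ with a mean TPM of at least 5, which leaves fewer genes, and 0.16 at 35‰ versus 18‰ with median-ratio scaling. The all-gene medians in these settings were 0.011 and −0.004. With a library left out, the median size of the change, a measure added after the data were seen, ran from 0.38 to 0.64 for carriers and from 0.16 to 0.28 for import genes in 35‰ versus 0‰. Over all genes tested it ran from 0.277 to 0.356. With a pseudocount of 0.1 the median size in that comparison was 0.69 for carriers, 0.205 for import genes and 0.330 over all genes tested. For import genes, again with a library left out, it ran from 0.14 to 0.31 in 18‰ versus 0‰ and from 0.12 to 0.26 in 35‰ versus 18‰.

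Over all genes, 1, 15 and 25 were called in 18‰ versus 0‰, 35‰ versus 0‰ and 35‰ versus 18‰. In the first, 0 were called with a mean TPM of at least 5, with median-ratio scaling, with the replicate block and with the 4 libraries compared. In the second, 1 was called without a filter and 24 with a mean TPM of at least 5. In the third, 4 were called without a filter and 41 with the 4 libraries compared. Leaving out a library gave 0 to 19, 3 to 85 and 2 to 41 calls.

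No source says that replicate numbers mark shared fish or tanks, and deviations of same-numbered libraries correlated at 0.061, −0.039 and 0.050. With the replicate block the counts over all genes were 0, 16 and 25, and no member was called. TPM keeps no depth, so the counting error of low genes such as slc25a14 is unknown.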
